A study of Mus musculus with 9 samples.

Results

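The 8 genes described here encode enzymes that make NADPH or feed the pathway that makes it. They were listed by symbol: the mitochondrial transhydrogenase Nnt, the cytosolic isocitrate dehydrogenase Idh1, the malic enzymes Me1 (cytosolic) and Me3 (mitochondrial), and the pentose phosphate enzymes G6pdx, Pgd, Tkt and Taldo1. All 8 were found among the 23457 rows of the count table, all 8 passed the filter on low counts, and all 8 had FPKM values (fragments per kilobase, scaled to depth). Poly(A) RNA came from the ventricular apex of adult hearts, with 5 wild-type (WT) animals and 4 that carry the label of a germline Parkin knockout (KO). The labels put both genotypes on the C57BL/6J background and name the tissue as whole heart. They give neither sex nor batch, nor the construction of the knockout allele.

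NADPH carries the reducing power for glutathione and thioredoxin recycling and for lipid synthesis. In the cytosol it comes from the oxidative branch of the pentose phosphate pathway, from malic enzyme and from isocitrate dehydrogenase, and the non-oxidative branch returns pentoses to glycolysis. In cardiac mitochondria Nnt couples the proton gradient to the transfer of hydride from NADH to NADP. C57BL/6J mice are known for a deletion of several exons inside Nnt that leaves no functional enzyme, while other C57BL/6 substrains carry the intact gene.

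Assigned reads ran from 4415183 to 20827699 per heart. Mitochondrially encoded transcripts took 32.6% to 58.2% of them in WT and 10.04% to 15.4% in the labelled KO. The log2 deviation of each heart's genes followed transcript GC content, with slopes of -0.40 to -0.20 log2 units per 10 percentage points in WT and 0.16 to 0.66 in the labelled KO, so the 8 genes and the lists around them are also given with GC and length trends removed. Reads of the Parkin gene were counted in every heart, 8 to 74 in WT and 37 to 82 in the labelled KO. Counts summed over a gene do not show whether part of it is deleted, and every direction below rests on the labels. Summed levels of 8 cardiomyocyte markers were 55602 to 61069 CPM in WT (CPM being reads scaled to library sizes that TMM, the trimmed mean of M values, adjusts) and 69365 to 78128 CPM in the labelled KO. Of these 8, 3 were called higher and 1 lower by edgeR, and 1 higher and 2 lower with the trends removed. Adipocyte markers, from a tissue rich in these enzymes, summed over 7 genes to 0 to 1.73 CPM in WT and 0.0602 to 5.15 CPM in the labelled KO. None of those 7 passed the filter on low counts. The sums of 8 macrophage and leukocyte markers were 81.2 to 100.1 and 92.9 to 121 CPM, with 2 of 6 tested called higher and 2 lower. Those of 5 skeletal muscle markers, mostly from Acta1, which heart muscle also expresses, were 201 to 478 and 821 to 1324 CPM, with 3 of 3 tested called higher. Calls were 1 higher and 2 lower of 5 endothelial markers and 2 and 2 of 6 fibroblast markers. For smooth muscle and pericyte markers they were 2 and 1 of 5. Tested Schwann and neuron markers had 0 and 1 of 2, and tested erythroid markers 0 and 0 of 2. Over all genes tested, 26.2% were called higher and 25.2% lower. With the trends removed, calls were 0 higher and 1 lower for macrophage and leukocyte markers and 3 and 0 for skeletal muscle markers. Calls there were 1 and 1 for endothelial, 0 and 2 for fibroblast and 1 and 0 for smooth muscle and pericyte markers. Schwann and neuron and erythroid markers had 0 and 0. In that fit 18.6% of all tested genes were called higher and 19.4% lower. Whether cell composition had a part in the results was not tested, and in bulk RNA fewer cells of a type and less RNA per cell cannot be told apart.

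Of the 8 genes, edgeR's quasi-likelihood test with Benjamini-Hochberg adjustment called 3 higher in the labelled KO (Pgd, Tkt and Taldo1) and 1 lower (G6pdx). Nnt, Idh1, Me1 and Me3 did not pass. Over all 12640 genes tested, 51.4% were called, 26.2% higher and 25.2% lower, so 4 called of 8 is near the background share. The median log2 fold change was 0.28 over the 8 genes and -0.0059 over all genes tested. With the trends removed Pgd, Tkt, Taldo1 and G6pdx were called in the same directions, and Me1 and Me3 were called higher as well. That made 5 higher and 1 lower, 6 of 8, where 38.1% of 12511 genes were called, 18.6% higher and 19.4% lower. The median over the 8 was then 0.50. In FPKM as deposited 6 of the 8 were called higher and 0 lower by limma (0 also at an unadjusted p under 0.05), all but Idh1 and G6pdx. There 53.3% of 12637 genes were called, 47.2% higher and 6.09% lower, and the median difference was 0.81 over the 8 and 0.44 over all genes. When each heart was centred on its median gene, 3 of the 8 were higher (Pgd, Tkt and Taldo1), where 25.4% of all genes were, and G6pdx was lower.

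**Figure D1:**
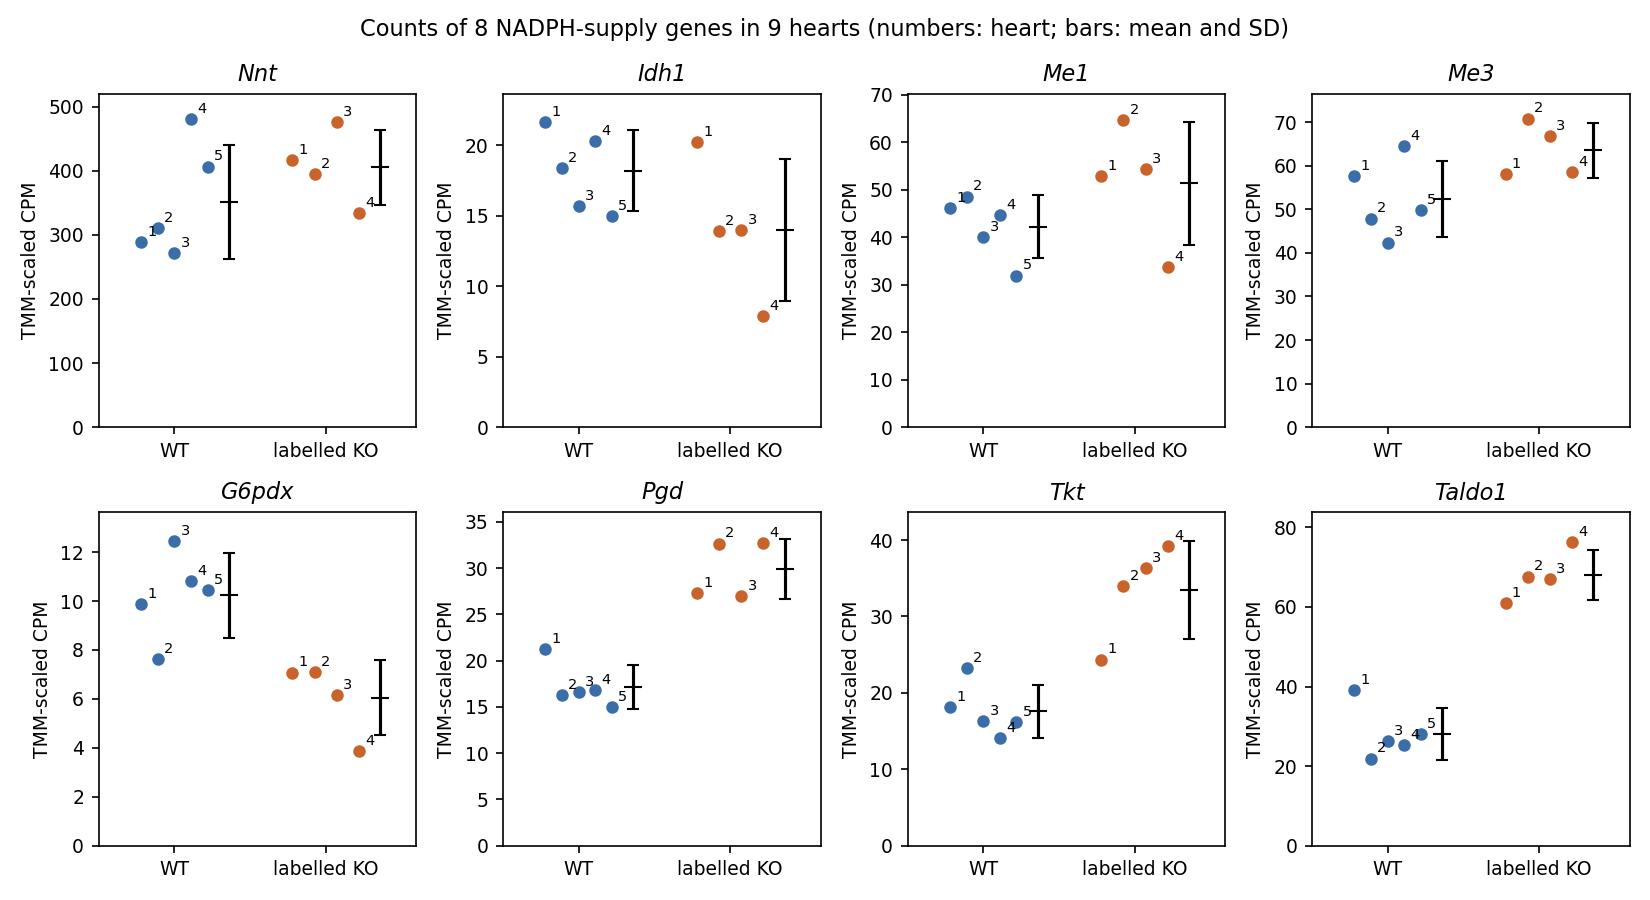
TMM-scaled CPM (vertical axes, linear from 0) of each gene in the 5 WT and 4 labelled KO hearts; small numbers give the heart, and bars the mean and SD. The groups are apart for G6pdx (lower in the labelled KO), Pgd, Tkt and Taldo1 (higher) and overlap for Nnt, Idh1, Me1 and Me3. In either direction they are apart for 41.6% of all tested genes.

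Nnt was the most abundant of the 8 in FPKM. Its mean over the 9 hearts was 115 FPKM, and it stood above 97.1% of the 18680 rows with any value above 0. In FPKM the WT hearts 1 to 5 had 90.8, 58.9, 57.3, 141 and 91.2, and the labelled KO hearts 1 to 4 had 162, 143, 174 and 115. The highest WT heart, heart 4, lay above the lowest labelled KO heart, also heart 4, and close below labelled KO heart 2. No heart of either genotype was near 0.

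The Nnt gene lies at chr13:119335448-119408997 on the minus strand of GRCm38, the assembly that mm10 names, and its longest coding transcript in GENCODE vM21 has 17 exons. That assembly was made from C57BL/6J itself, so reads from the exons missing in this substrain have no place in it. The deposited counts are summed over the gene, so a transcript with the deletion and one without it cannot be told apart here. Each level given for Nnt is therefore a level of transcript and not of enzyme, and no heart can be assigned an Nnt allele from it.

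In counts, Nnt had 6433, 895, 916, 6838 and 3502 reads in WT hearts 1 to 5 and 8760, 6557, 9420 and 4670 in labelled KO hearts 1 to 4. Scaled to the library these were 288, 310, 271, 480 and 406 CPM in WT and 416, 395, 476 and 334 CPM in the labelled KO. WT heart 4 was the highest of the 9, WT heart 5 lay among the labelled KO hearts, and WT hearts 1 to 3 lay below all of them. The 95% exact Poisson interval, which covers counting error only, was 254 to 289 CPM in WT heart 3 and 469 to 492 CPM in WT heart 4.

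The mean was 351 ± 89.0 CPM in WT (SD, n = 5) and 405 ± 58.6 CPM in the labelled KO (SD, n = 4). By edgeR the log2 fold change was 0.20 ± 0.17 (standard error), which is not a call (adjusted p = 0.330), nor is the 0.28 ± 0.15 with the trends removed (adjusted p = 0.171). Without WT hearts 2 and 3, the shallowest 2 libraries, the value fell to 0.044 (adjusted p = 0.856). Without WT heart 4 it was 0.32 (adjusted p = 0.106), and with the trends removed as well it passed at 0.40 (adjusted p = 0.041).

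FPKM as deposited gave a different call for Nnt. On the log2(FPKM + 1) scale the difference was 0.81 ± 0.27 (limma adjusted p = 0.023). After centring each heart the difference was 0.32 (adjusted p = 0.194). The call in FPKM was also lost without WT heart 2 (adjusted p = 0.051) or 3 (0.055), without labelled KO heart 1 (0.057) or 3 (0.068) and with a replicate block (0.069). The differences there were 0.69, 0.68, 0.77, 0.73 and 0.85, against 0.81 over all hearts.

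Around Nnt on chromosome 13, of the 5 nearest tested genes on each side, 6 were called lower and 1 higher (Pelo, 0.98). Over all tested genes 25.2% were called lower and 26.2% higher. Among the neighbours called lower were Paip1, a regulator of translation (-1.35 ± 0.27, edgeR adjusted p = 8.6e-04), and Mrps30, a protein of the mitochondrial ribosome (-0.71 ± 0.22, adjusted p = 0.016). After removal of the trends Paip1 stood at -0.61 (adjusted p = 0.056) and Mrps30 at -0.25 (adjusted p = 0.333). Of the 10, 2 were called there, Parp8 lower (-0.64) and Hmgcs1, an enzyme of sterol synthesis, higher (0.42), where 38.1% of all tested genes were called.

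By root mean square distance between centred log2 CPM profiles over the 9 hearts, the genes most like Nnt among 8894 were Zbtb14 (0.104), Hbegf (0.143), Rpl31 (0.159) and Pla2g16 (0.160). Their log2 fold changes were 0.21, 0.14, 0.20 and 0.19, none of them a call. Because the distance takes in the difference between the genotypes, values near that of Nnt follow from how these genes were chosen. After removal of the trends they were 0.55, 0.17, 0.42 and 0.62. All but Hbegf were called higher, where 18.6% of all tested genes were. Of the other 7 genes, Me3 was nearest to Nnt (0.213) and Taldo1 farthest (0.658).

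**Figure D2:**
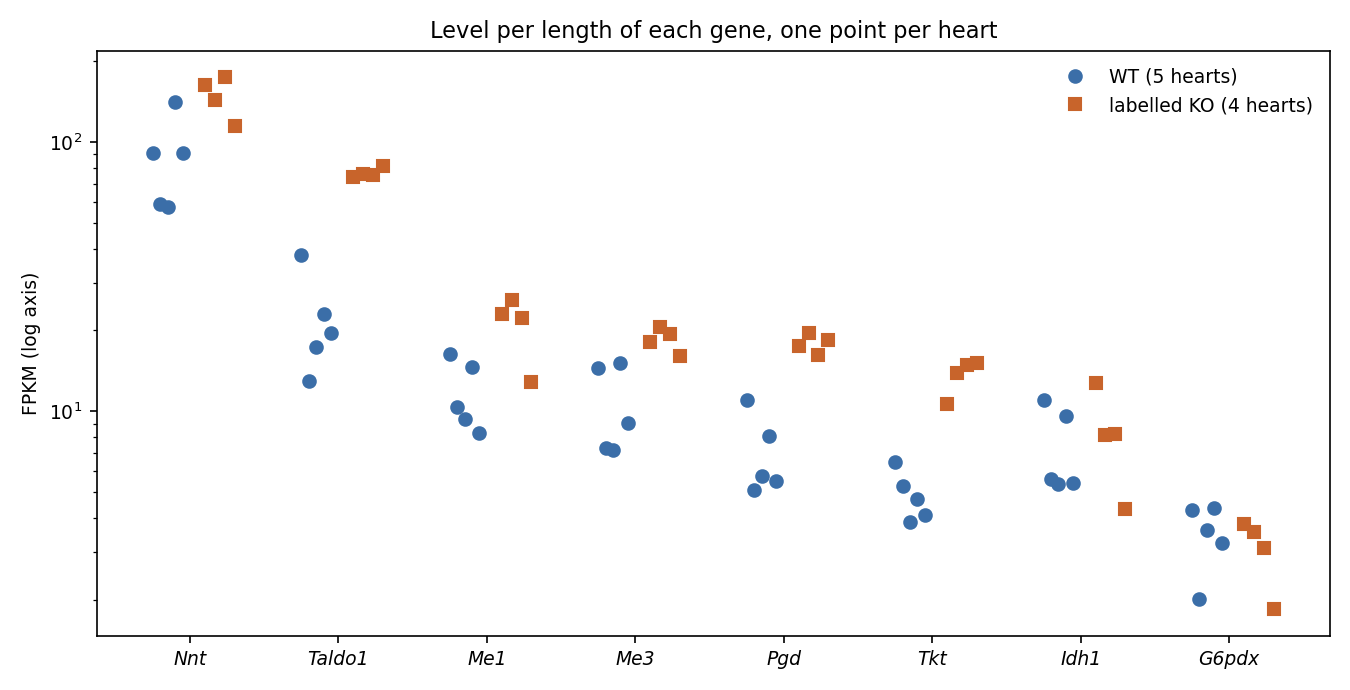
FPKM (log axis) of each gene in each heart, ordered by the mean over the 9 hearts; circles are WT and squares labelled KO. Nnt is highest, at 57.3 to 174 FPKM, and G6pdx lowest, at 1.84 to 4.38 FPKM.

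Per length, Taldo1 followed Nnt with a mean of 46.4 FPKM over the 9 hearts, ahead of Me1 (15.9), Me3 (14.1), Pgd (11.9), Tkt (8.75), Idh1 (7.83) and G6pdx (3.32). That order of means was not the same in both groups. In WT Idh1 (7.40 ± 2.70, SD, n = 5) stood above Tkt (4.89 ± 1.03). It was close to Pgd (7.10 ± 2.47) and below it in WT hearts 3 and 5. In the labelled KO Idh1 stood at 8.36 ± 3.43 (SD, n = 4), below Pgd (17.9) and Tkt (13.6), though above Tkt in heart 1. The GC trends were not removed from these values, and Idh1 has 43.8% GC against 54.2% for Pgd and 54.0% for Tkt. Me1 and Me3 were at 11.8 ± 3.51 and 10.6 ± 3.89 FPKM in WT (SD, n = 5), each mean within the SD of the other. In the labelled KO they were at 21.0 ± 5.62 and 18.5 ± 1.95 FPKM (SD, n = 4), and the mean of Me1 lay above the highest Me3 heart (20.5). G6pdx, the entry enzyme of the oxidative branch, was lowest in mean in both groups, at 3.51 ± 0.962 and 3.09 ± 0.882 FPKM.

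The pentose phosphate enzymes carried the 4 calls in counts, and they did not share a direction. The windows around their RefSeq start sites are printed because these 4 genes, with Me1, are known as targets of the antioxidant factor NRF2. Each window runs from 250 bases before the start to 50 after it, on GRCm38.p6 and 5′ to 3′ on the gene's strand. Capitals mark matches to TGACNNNGC, the core of the antioxidant response element, on either strand. Windows were found for 7 of the 8 genes.
G6pdx, chrX:74428831-74429130, minus strand: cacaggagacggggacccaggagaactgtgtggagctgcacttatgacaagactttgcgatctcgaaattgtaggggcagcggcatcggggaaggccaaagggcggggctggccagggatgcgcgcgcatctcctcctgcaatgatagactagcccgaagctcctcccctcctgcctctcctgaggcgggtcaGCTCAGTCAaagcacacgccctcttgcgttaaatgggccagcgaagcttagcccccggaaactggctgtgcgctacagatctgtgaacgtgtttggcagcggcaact
Me1, chr9:86695865-86696164, minus strand: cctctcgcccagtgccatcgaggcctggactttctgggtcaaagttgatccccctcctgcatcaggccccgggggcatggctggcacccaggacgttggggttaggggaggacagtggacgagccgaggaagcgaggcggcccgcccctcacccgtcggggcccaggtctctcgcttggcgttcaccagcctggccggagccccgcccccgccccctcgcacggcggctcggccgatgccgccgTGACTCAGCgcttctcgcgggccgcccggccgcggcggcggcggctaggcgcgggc
Pgd, chr4:149166656-149166955, minus strand: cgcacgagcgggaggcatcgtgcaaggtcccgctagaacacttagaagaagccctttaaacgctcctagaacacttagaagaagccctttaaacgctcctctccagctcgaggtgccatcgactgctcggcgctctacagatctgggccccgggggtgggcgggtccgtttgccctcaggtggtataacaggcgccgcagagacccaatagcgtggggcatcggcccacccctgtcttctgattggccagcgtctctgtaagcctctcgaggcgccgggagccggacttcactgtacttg
Tkt, chr14:30548881-30549180, plus strand: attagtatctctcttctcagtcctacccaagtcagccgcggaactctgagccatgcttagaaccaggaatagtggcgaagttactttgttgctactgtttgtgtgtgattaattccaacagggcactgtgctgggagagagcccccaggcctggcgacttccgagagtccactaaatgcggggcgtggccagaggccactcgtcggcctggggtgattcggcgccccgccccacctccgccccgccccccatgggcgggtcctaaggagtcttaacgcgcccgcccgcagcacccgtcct
Taldo1, chr7:141391910-141392209, plus strand: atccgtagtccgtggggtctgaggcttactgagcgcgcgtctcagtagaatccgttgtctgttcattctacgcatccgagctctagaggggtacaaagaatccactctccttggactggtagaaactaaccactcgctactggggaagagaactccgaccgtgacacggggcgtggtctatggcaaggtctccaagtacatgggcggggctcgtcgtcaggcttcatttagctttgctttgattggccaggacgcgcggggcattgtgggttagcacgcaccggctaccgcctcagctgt

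The G6pdx window held 1 match, on the opposite strand, beginning 57 bases before the start, and the Me1 window held 1, beginning 6 bases before it. The windows shown for Pgd, Tkt and Taldo1 held none, and a second Pgd window held 1. In all, 3 of the 10 windows of these genes had a match, against 12.4% of 32851 windows in the table. A match is one of letters, not a measured binding site.

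G6pdx had 220, 22, 42, 154 and 90 reads in WT hearts 1 to 5 and 149, 118, 122 and 54 in labelled KO hearts 1 to 4. Its CPM was 9.86, 7.63, 12.4, 10.8 and 10.5 in WT and 7.08, 7.11, 6.17 and 3.87 in the labelled KO. Every labelled KO heart was below every WT heart, and the groups were apart in either direction for 41.6% of all tested genes. The highest labelled KO heart was close under WT heart 2, which rests on 22 reads. G6pdx makes the first NADPH of the pathway and is held to set its flux.

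The fold change of G6pdx was -0.76 ± 0.20 on the log2 scale (edgeR adjusted p = 0.0052), a level 0.592 times that of WT. It was -0.93 ± 0.19 with the trends removed (adjusted p = 0.0019) and -0.60 without labelled KO heart 4, the lowest (adjusted p = 0.010). In FPKM as deposited the difference of -0.14 was not a call (limma adjusted p = 0.601), and centred per heart it was -0.63 (adjusted p = 0.0064). The gene lies at chrX:74409483-74429194 on the minus strand. It shares 418 exon bases, 13.6% of its own, with Ikbkg on the plus strand, and the libraries do not keep strand. Ikbkg was called higher (0.71 ± 0.15, adjusted p = 0.0016; 1.21 with the trends removed). G6pd2, a copy with 93.2% identity over 2332 bases, had 0 reads in all 9 hearts.

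Pgd, which makes the second NADPH of the oxidative branch (chr4:149149991-149166771, minus strand), went the other way. Its CPM was 21.3, 16.3, 16.6, 16.8 and 14.97 in WT hearts 1 to 5 and 27.3, 32.6, 26.9 and 32.7 in labelled KO hearts 1 to 4. All labelled KO hearts were above all WT hearts. The log2 fold change was 0.78 ± 0.14 (edgeR adjusted p = 3.4e-04) and 0.45 ± 0.12 with the trends removed (adjusted p = 0.0071). The call was lost when a replicate block was added to that fit (0.42, adjusted p = 0.059).

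Tkt and Taldo1 are the transketolase and transaldolase of the non-oxidative branch. Tkt (chr14:30548359-30574720, plus strand) had 18.2, 23.2, 16.3, 14.1 and 16.1 CPM in WT hearts 1 to 5 and 24.4, 34.0, 36.3 and 39.2 CPM in labelled KO hearts 1 to 4. The groups did not overlap, though labelled KO heart 1 stood just above WT heart 2. The log2 fold change was 0.95 ± 0.17 (edgeR adjusted p = 3.2e-04). It was 0.65 ± 0.15 with the trends removed (adjusted p = 0.0040), where labelled KO heart 1 (22.9 CPM) fell below WT heart 2 (25.8 CPM).

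Taldo1 (chr7:141392199-141402968, plus strand) had 39.1, 21.9, 26.4, 25.3 and 28.1 CPM in WT hearts 1 to 5 and 61.0, 67.6, 66.9 and 76.4 CPM in labelled KO hearts 1 to 4. The lowest labelled KO heart was well above the highest WT heart, heart 1. The log2 fold change was 1.25 ± 0.15, or 2.37-fold (edgeR adjusted p = 2.3e-05), and 0.90 ± 0.13 with the trends removed (adjusted p = 1.7e-04). In FPKM, Taldo1 was 22.2 ± 9.63 in WT (SD, n = 5) and 76.7 ± 3.14 in the labelled KO (SD, n = 4; limma adjusted p = 3.4e-04). On the log2(FPKM + 1) scale the difference was 1.83 as deposited and 1.34 centred per heart (adjusted p = 2.6e-04). A transcript of the copy Gm17823, which has no row of its own in the counts, matches Taldo1 at 94.7% identity over 923 bases.

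In CPM the 4 labelled KO hearts lay above all WT hearts for 3 of the 8 genes, where 22.3% of all tested genes did so. In FPKM this held for 4 of the 8 (Me3, Pgd, Tkt and Taldo1), where 41.3% did so.

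**Figure D3:**
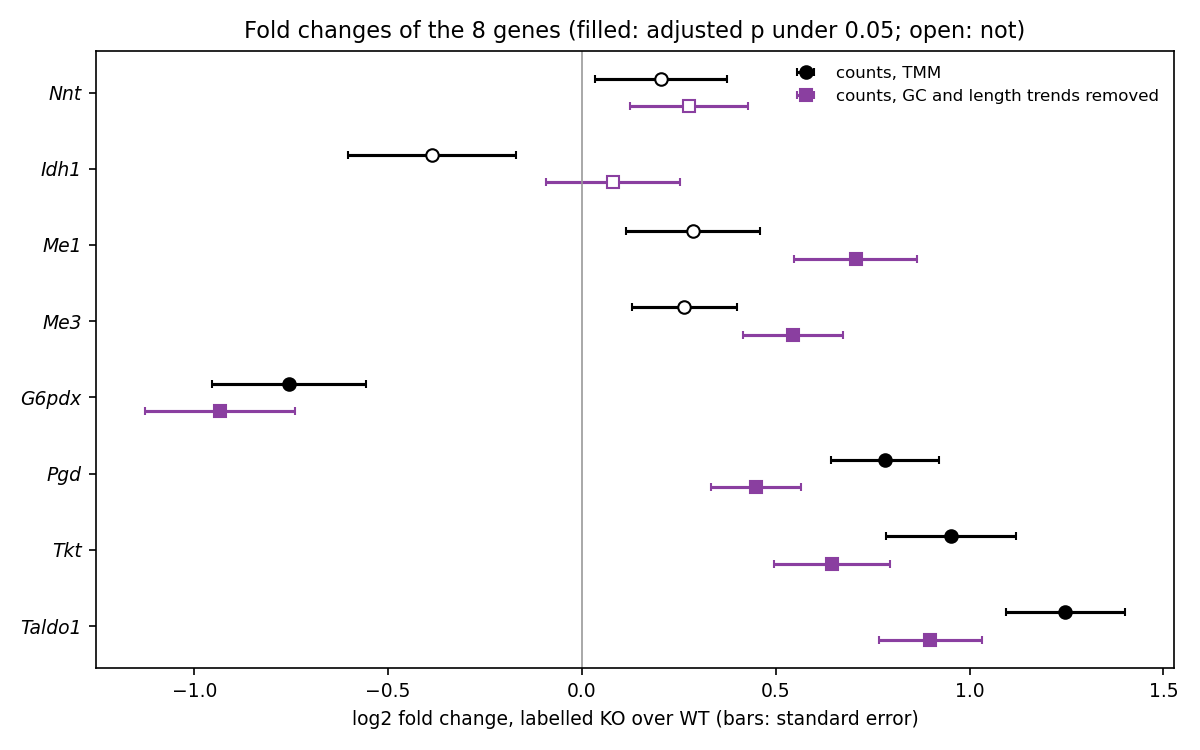
Log2 fold change of each gene (horizontal axis, labelled KO over WT, bars standard errors) as counted and with GC and length trends removed; filled symbols passed the test. G6pdx is at -0.76 and -0.93, Taldo1 at 1.25 and 0.90, and Me1 and Me3 passed only in the second of these fits.

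Ratios of reads within a heart need no scaling between hearts, and G6pdx (52.6% GC) is close in base composition to Pgd (54.2%), Tkt (54.0%) and Taldo1 (53.6%). Their transcript lengths differ, at 2652 bases for G6pdx, 2218 for Pgd, 3223 for Tkt and 1362 for Taldo1. Removal of the trends moved G6pdx from -0.76 to -0.93 and Pgd from 0.78 to 0.45, so the ratios are not free of those trends. For each G6pdx read there were 1.33 to 2.15 Pgd reads in WT hearts, with a median of 1.55, and 3.85 to 8.46 in labelled KO hearts, with a median of 4.48. For Tkt the ratio was 1.31 to 3.05 in WT and 3.44 to 10.1 in the labelled KO. For Taldo1 it was 2.12 to 3.96 and 8.62 to 19.8. In all 3 ratios the groups were apart, and labelled KO heart 4, with 54 G6pdx reads, was highest. Taldo1 to Tkt, both of which rose, was 0.940 to 2.15 in WT and 1.84 to 2.50 in the labelled KO, and the groups overlapped. These ratios were chosen after the values were seen and are given as a description.

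**Figure D4:**
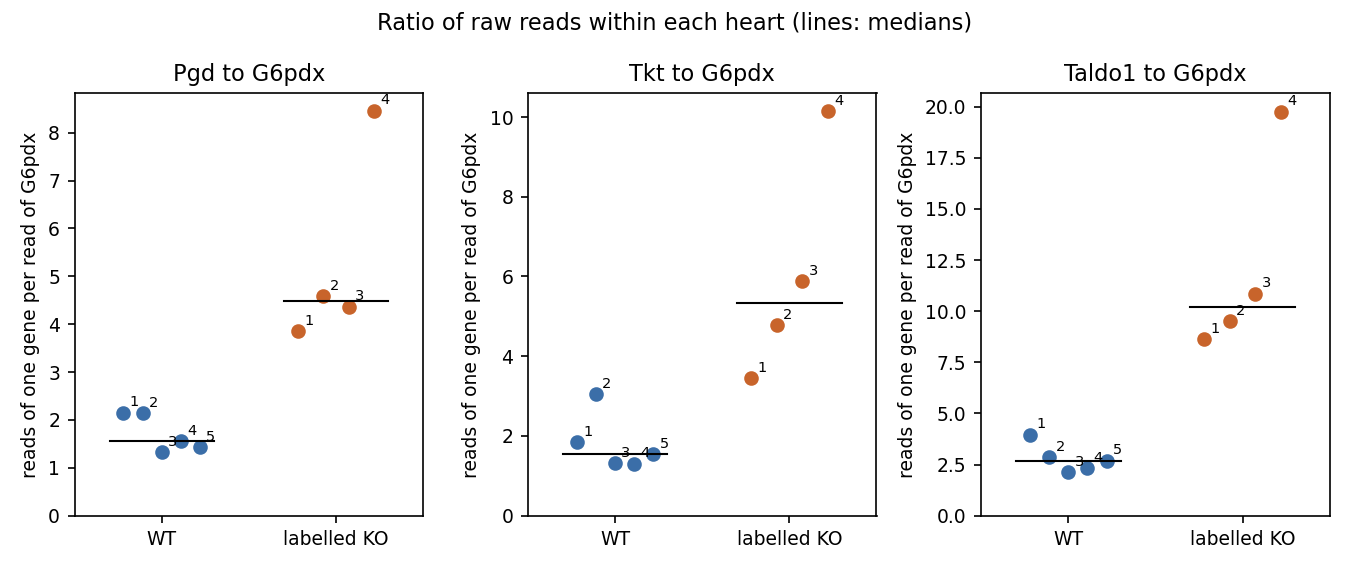
Raw reads of Pgd, Tkt and Taldo1 per read of G6pdx (vertical axes, linear from 0) in each heart; lines are group medians and small numbers the heart. Median Pgd reads per G6pdx read are 1.55 in WT and 4.48 in the labelled KO, and heart 4 of the labelled KO is highest in each panel.

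Malic enzymes turn malate into pyruvate and reduce NADP. Me1 (chr9:86581371-86695953, minus strand) had 46.1, 48.6, 40.0, 44.7 and 31.9 CPM in WT hearts 1 to 5 and 53.0, 64.7, 54.4 and 33.6 CPM in labelled KO hearts 1 to 4. Labelled KO hearts 1 to 3 were above all WT hearts, and labelled KO heart 4 was above WT heart 5 alone. By edgeR the change was 0.29 ± 0.17, not a call (adjusted p = 0.177). Without labelled KO heart 4 it passed at 0.45 (adjusted p = 0.019), and with the trends removed it passed at 0.71 ± 0.16 (adjusted p = 0.0030). In FPKM as deposited the difference was 0.78 (limma adjusted p = 0.019), and centred per heart 0.29 (adjusted p = 0.202). That call was also lost without labelled KO heart 1 (0.72, adjusted p = 0.051), 2 (0.67, 0.065) or 3 (0.74, 0.053) and with a replicate block (0.67, 0.080). Me1 has the second lowest GC content of the 8 (45.1%), and transcripts of the copies Gm7049 and Gm48795 match it at 98.5% and 98.7% identity.

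Me3 (chr7:89632392-89854359, plus strand) had 57.6, 47.9, 42.4, 64.5 and 49.8 CPM in WT hearts 1 to 5 and 58.1, 70.8, 66.8 and 58.5 CPM in labelled KO hearts 1 to 4. WT heart 4 lay among the labelled KO hearts. The log2 fold change was 0.26 ± 0.13 (edgeR adjusted p = 0.112), and 0.54 ± 0.13 with the trends removed (adjusted p = 0.0044). It passed in FPKM as deposited (0.80 ± 0.23, limma adjusted p = 0.012) but not in centred FPKM (0.31, adjusted p = 0.080) or with a replicate block (0.77, adjusted p = 0.054). Me3 shares 569 exon bases, 3.89% of its own, with the antisense gene A230065N10Rik, and the libraries do not keep strand.

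Idh1 (chr1:65158616-65186500, minus strand) had 21.7, 18.4, 15.7, 20.3 and 14.97 CPM in WT hearts 1 to 5 and 20.2, 13.9, 14.005 and 7.87 CPM in labelled KO hearts 1 to 4. Labelled KO heart 1 lay among the WT hearts, and the other labelled KO hearts were below all of them. By edgeR the change was -0.39 ± 0.22, not a call (adjusted p = 0.146), although without labelled KO heart 1 it did, at -0.62 (adjusted p = 0.018). Once the trends were removed it was 0.081 ± 0.17 (adjusted p = 0.745). Idh1 has the lowest GC content of the 8 (43.8%), and its sign differed between these fits. Its mitochondrial counterpart Idh2 was called higher in both fits, from 754 ± 99.99 CPM in WT (SD, n = 5) to 1473 ± 199 CPM in the labelled KO (SD, n = 4; 0.96 ± 0.14, edgeR adjusted p = 7.8e-05; 0.51 with the trends removed, adjusted p = 0.0038).

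Of the other pentose phosphate genes, 8 of 11 were tested, and 2 rose and 1 fell, with a median of 0.016. Over all tested genes 26.2% were called higher and 25.2% lower. H6pd, the enzyme of the endoplasmic reticulum that performs the first oxidative steps, rose (0.62 ± 0.12, edgeR adjusted p = 7.1e-04), as did the lactonase Pgls (1.24 ± 0.22, adjusted p = 3.3e-04). Prps1, which uses ribose phosphate for nucleotide synthesis, fell (-0.82 ± 0.19, adjusted p = 0.0024). With the trends removed none of the 3 passed, at 0.11, 0.15 and -0.41. Prps2 alone was called there, higher (0.58, edgeR adjusted p = 0.018), where 18.6% of all tested genes were called higher. The transketolase-like genes Tktl1 and Tktl2 had 2 reads and 0 reads in all.

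Another list held 11 genes of other NADPH producers, folate enzymes and NAD kinases, not all of which make NADPH. Of these, 7 rose and 0 fell by edgeR, also 7 and 0 at an unadjusted p under 0.05 and by DESeq2. Their median was 0.46, and 26.2% of all tested genes were called higher. In FPKM centred per heart, 10 of the 11 were tested, 5 were higher and 1 was lower, Mthfd2l (-0.35, limma adjusted p = 0.041). Of all genes tested in centred FPKM, 25.4% were called higher. Besides Idh2, those called higher by edgeR were the folate enzymes Mthfd1 (0.46), Mthfd1l (1.49), Mthfd2 (1.83) and Aldh1l1 (1.01), the glutamate dehydrogenase Glud1 (0.42) and the NAD kinase Nadk (0.60). Mthfd2 was at 1.03 ± 0.411 CPM in WT (SD, n = 5) and 3.98 ± 1.91 CPM in the labelled KO (SD, n = 4), and is one of the least abundant. With the trends removed 8 rose and 0 fell (9 and 0 at an unadjusted p under 0.05), where 18.6% of all tested genes were called higher. Those 8 held the mitochondrial NAD kinase Nadkd1 (0.41) and Aldh1l2 (0.56), and Mthfd1 (0.28) did not pass.

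Of 17 enzymes that use NADPH, 15 were tested, 9 rose and 1 fell, with a median of 0.48. Over all tested genes 26.2% were called higher and 25.2% lower. Fatty acid synthase Fasn rose from 22.3 ± 3.88 CPM in WT (SD, n = 5) to 60.8 ± 17.4 CPM in the labelled KO (SD, n = 4; 1.42 ± 0.18, edgeR adjusted p = 2.7e-05). The mitochondrial thioredoxin reductase Txnrd2 rose by 1.02, its cytosolic counterpart Txnrd1 by 0.50 and the endothelial nitric oxide synthase Nos3 by 1.15, and without the trends by 0.65, 0.55 and 0.54. Fasn stood there at 0.91. Glutathione reductase, Gsr, stood at 0.061 ± 0.15 (adjusted p = 0.750). Of the NADPH oxidase subunits, Cyba rose (1.69 ± 0.19; 0.80 with the trends removed) and Cybb fell (-1.09 ± 0.26). With the trends removed 6 rose, Cyba, Blvrb, Fasn, Nos3, Txnrd1 and Txnrd2, and 0 fell (7 and 0 at an unadjusted p under 0.05). Over all tested genes 18.6% were called higher there and 19.4% lower. Cybb did not pass in that fit (-0.47, edgeR adjusted p = 0.152).

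Of 10 genes for NRF2 and its known targets, 9 were tested, with 2 called higher and 3 lower, where 26.2% and 25.2% of all tested genes were. Once the trends were removed there were 2 each way, against 18.6% higher and 19.4% lower over all tested genes. Txnrd1, Gsr and Nqo1 also stand in the list of NADPH users. The gene of NRF2 itself, Nfe2l2, fell (-0.79 ± 0.13, edgeR adjusted p = 2.6e-04; -0.50 with the trends removed), and that of its inhibitor Keap1 rose (1.09 ± 0.15, adjusted p = 5.0e-05; 0.49 with the trends removed). Gclc, the catalytic subunit of glutathione synthesis, fell (-0.96 ± 0.15, adjusted p = 1.5e-04; -0.74 with the trends removed). Its modifier subunit Gclm fell in the first fit (-0.61, adjusted p = 0.011) and stood at 0.019 in the second (adjusted p = 0.935). The quinone reductase Nqo1 stood at 0.030 ± 0.26 (adjusted p = 0.935).

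Of 5 genes of NAD-linked enzymes that act on isocitrate or malate, 1 rose and 3 fell, where 26.2% of all tested genes were called higher and 25.2% lower. The mitochondrial malate dehydrogenase Mdh2 rose (0.80 ± 0.14, edgeR adjusted p = 2.7e-04; 0.33 with the trends removed), and Idh3b, Idh3g and Idh3a of the NAD-linked isocitrate dehydrogenase fell by 0.74, 0.36 and 0.30 on the log2 scale. Without the trends Idh3b and Idh3g stood at -0.94 and -0.59, and Idh3a, at -0.017, did not pass (adjusted p = 0.907).

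**Figure D5:**
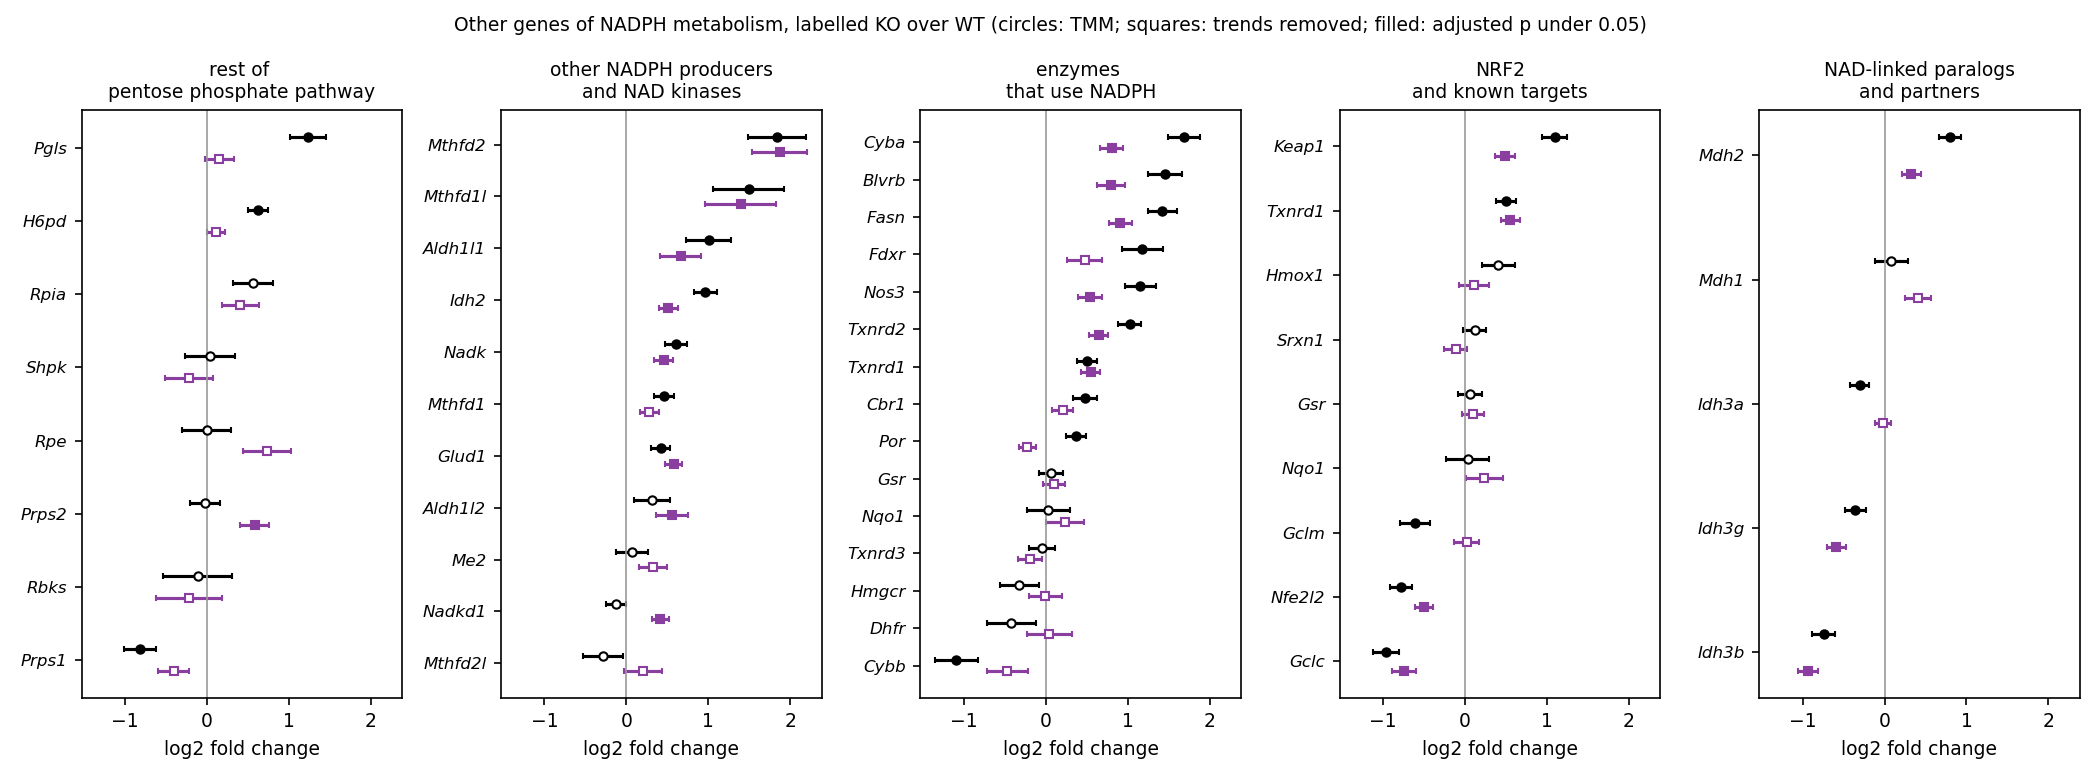
Log2 fold changes (horizontal axes, labelled KO over WT, bars standard errors) of the tested genes in 5 lists around NADPH; circles are counts with TMM scaling, squares counts with the trends removed, filled where the test was passed. The list of other producers, folate enzymes and NAD kinases has 7 called circles, all higher, and NRF2 genes have calls in both directions.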

How the data were processed

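The authors deposited read counts per gene for 9 hearts and, separately, FPKM values for the same hearts. The submitters' processing notes list TopHat, TopHat2 2.0.10, Bowtie2, Cufflinks 2.1, HTSeq, edgeR and DESeq with mm10, in no stated order. The annotation and counting settings are not stated. Per the labels' protocols, libraries were single-end and did not keep strand.

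edgeR 4.0.16 (R 4.3.3; TMM, filterByExpr, quasi-likelihood F test) compared the counts, adjusted over all tested genes at a threshold of 0.05, without a replicate term. limma 3.58.1 compared log2(FPKM + 1) where the mean FPKM reached 0.5; this scale understates changes of low genes. GC and length trends per heart were removed with lowess offsets (span 0.3), which also take out biology that follows them. P-values weigh the difference between genotypes against the spread among hearts of the same genotype, which the labels do not assign to litters. Differences between libraries that run with genotype, such as GC slope and mitochondrial share, are not covered by these p-values. Same-numbered hearts did not deviate together (correlations -0.26 to 0.041) and were not paired. Procedures were tested on simulated counts, and no outcome of that is given here.

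The members and lists were chosen with earlier results of these data known. The named genes are the 8 members, called genes of 5 lists with a few others, 5 tested neighbours on each side of Nnt and the 4 genes of at least 5 CPM most like it. Ikbkg, A230065N10Rik, Gm7049, Gm48795, Gm17823 and the Parkin gene were added for overlap, likeness of sequence and design. Coordinates of genes are from GENCODE vM21, whose symbols matched 21751 rows directly and 1276 through a synonym.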

Additional observations from a re-analysis of the deposited data

Results flagged for a closer look

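Pgd in WT heart 1, at 21.3 CPM, stood apart from the other WT hearts, of which the nearest was at 16.8 CPM: the gap was 0.711 of the whole WT range. It remained below all labelled KO hearts. It was the only one among 32 groups of hearts looked at (8 genes, 2 genotypes, CPM and FPKM) in which a heart stood apart by Dixon's criterion, which chance meets in about 1 group in 20.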

How the results depend on the processing

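In counts, G6pdx kept its lower call and Tkt and Taldo1 their higher calls under each alternative run. Pgd kept its call in all but the fit with GC and length offsets and a replicate block. Of the 8 genes 4 were called, and leaving out each heart in turn gave 4 to 5, or 6 to 7 with the offsets. Limma-voom and the offsets each gave 6, and the offsets with a replicate block 5. The replicate block alone left 4 called, with Nnt at 0.29. Nnt ran from 0.11 to 0.32 without 1 heart, and from 0.20 to 0.40 with the offsets as well, where it passed without WT heart 4 only. Over all genes 6503 were called by edgeR. That count was 5594 to 6752 without 1 heart, 3393 with the offsets and a replicate block and 4028 with the offsets and without the 2 shallowest WT hearts. With the offsets and without 1 heart it was 4692, 4363, 4302, 4208 and 4157 for WT hearts 1 to 5 and 4628, 3935, 3681 and 4180 for labelled KO hearts 1 to 4. The cause was not tested. In FPKM 6 genes were called, 4 when centred per heart, 3 with a replicate block and 4 to 6 without 1 heart. The fits with offsets that leave out hearts were chosen after seeing the data. G6pdx rests on 22 to 220 reads per heart, fewer in each heart than any other of the 8.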
